A study of Homo sapiens with 17 samples.

Results

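The RAB genes encode small GTPases, and 59 of them were found among the 16876 genes named in 3 deposited tables of m6A pull-down regions. A region was taken where the table marked it as lying in an exon, an intron or the promoter part of either (the start of the gene) of a gene called RAB, followed by digits and optional letters. Names with further text, such as those of RAB-interacting proteins, were left out. The rule found 444 of 139373 regions (HPr1AR), 277 of 110260 (LNCaP) and 192 of 77311 (22Rv1), 913 of 326944 in all. These covered 55, 56 and 52 RAB genes, of which 49 were listed in all 3 tables, 6 in 2 tables and 4 in 1 table.

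RAB proteins switch between a GTP-bound state, in which they recruit effectors to a membrane, and a GDP-bound state. Exchange factors load GTP, GTPase-activating proteins trigger its hydrolysis, and prenylation anchors the protein in the membrane from which GDP dissociation inhibitors can extract it. Each RAB marks a particular compartment, from the endoplasmic reticulum to endosomes, lysosomes and secretory granules. N6-methyladenosine (m6A) is a modified base of messenger RNA that is known to lie mostly near stop codons and in last exons, and that influences RNA stability and translation. Epithelial cells of the prostate secrete into the gland lumen and rely on polarised membrane traffic.

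RNA was pulled down with an m6A antibody or with unspecific immunoglobulin G (IgG) from 3 wild-type prostate lines given vehicle only. HPr1AR is a non-malignant epithelial line that carries the androgen receptor, LNCaP was derived from a lymph node metastasis of prostate carcinoma, and 22Rv1 from a xenograft of one that had relapsed after androgen withdrawal. HPr1AR was kept in a keratinocyte serum-free medium and the cancer lines in RPMI with serum, so medium and line cannot be told apart. HPr1AR and LNCaP had 3 samples of each pull-down, and 22Rv1 had 3 IgG and 2 m6A samples. Each line is a single culture model, the labels speak of biological triplicates, and the tables hold 1 pooled comparison per line with no value per sample.

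The whole tables set these limits. The depth over both pull-downs, rebuilt from the tables, came to 16.8 M reads (HPr1AR), 12.8 M (LNCaP) and 8.12 M (22Rv1). The table headers do not name the numerator pull-down, which was taken to be m6A from the names of the tables, so "higher" means more reads in the numerator. All 7 markers of basal epithelium (such as KRT5 and TP63) had exon regions in HPr1AR, with 302 CPM (reads scaled to library depth) in sum, against 2 of 7 in LNCaP (21.3 CPM) and in 22Rv1 (6.65 CPM), where KRT5, KRT14, KRT15, TP63 and ITGB4 were not listed. All 7 luminal markers were listed in LNCaP (255 CPM) and 22Rv1 (203 CPM), and 3 of 7 in HPr1AR (41.2 CPM), where KLK2, KLK3, FOLH1 and TMPRSS2 were not. The genome build in the submitters' processing notes is hg38, but 11.3%, 7.22% and 6.77% of the RAB regions (HPr1AR, LNCaP, 22Rv1) fell within the GRCh38 coordinates of their gene, so positions are printed as the tables give them.

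The first question was which RAB transcripts were enriched by the m6A antibody over IgG. In the authors' deposited table every RAB region was listed as up, and 425 of 444 (95.7%) RAB regions of HPr1AR passed the authors' adjusted p of 0.05, against 96.5% of all regions. In the authors' deposited tables of LNCaP and 22Rv1, 267 of 277 (96.4%, all regions 95.4%) and 191 of 192 (99.5%, all regions 99.3%) passed. The RAB regions that did not pass, 19, 10 and 1, all held 0 numerator reads. The deposited log2 fold subtracts the log rate of the reference 2 times, so a region with equal rates in both pull-downs also has a large positive fold. The ordinary read ratio was therefore computed from the reads of the window that stands for the region in the table.

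By that ratio, 151 of 444 RAB regions (34.0%) were higher in HPr1AR, where 40.6% of all regions were. In LNCaP 121 of 277 (43.7%) were higher, against 40.0% of all regions, and in 22Rv1 110 of 192 (57.3%), against 56.4%. The call is an exact two-sided binomial test with Benjamini-Hochberg adjustment over the whole table at 0.05. It uses the window that stands for a region, and the sources used here do not say how that window was chosen. No correction was made for the choice, so p-values and limits may be too favourable in regions of many windows. No RAB region was lower in any line (0 of 444, 0 of 277 and 0 of 192, 0.122%, 0.16% and 0.931% of all regions were), although 46, 12 and 48 were lower once the line's median log2 ratio (1.21, 1.18 and 2.10) was set to 0. RAB regions had a median log2 read ratio of 0.82 (HPr1AR), 1.59 (LNCaP) and 2.01 (22Rv1). With that centring the higher RAB regions numbered 81, 74 and 39 (18.2%, 26.7% and 20.3%), beside 22.7%, 21.7% and 17.2% of all regions. With exon marks only the higher RAB regions numbered 98 in HPr1AR. For that count and for the regions lower after centring no share over all regions is given here. They therefore do not set RAB regions apart.

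RAB7A and RAB10 supplied 111 of the 444 HPr1AR regions, and only 13 of those were higher. Without them 138 of 333 (41.4%) RAB regions of HPr1AR were higher, with a median log2 read ratio of 1.19. In LNCaP the share without both genes was 47.9% (112 of 234) and in 22Rv1 59.2% (103 of 174).

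Counted by gene, 53 of 55 RAB genes had a higher region in HPr1AR and 52 of 56 in LNCaP. In 22Rv1 46 of 52 had one (26 after centring, with no matching share over all genes given here). The background shares are 93.1%, 90.7% and 91.2% of all listed genes, so nearly every gene has such a region and the RAB counts lie near that level. The same shares are the background for the counts of genes by group below. A higher region was present in all 3 lines for 39 RAB genes, in 2 lines for 14 and in 1 line for 6. Unless a place is named, the values below are those of each gene's leading region, the region with the smallest adjusted p. It can differ in place between lines, was chosen among several and so lies at the upper end of that gene's regions. Where the deposited p was 0, the reads are the smallest that reach it and the ratio is a lower bound. Brackets give 95% exact binomial limits, which cover counting error only.

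**Figure D1:**
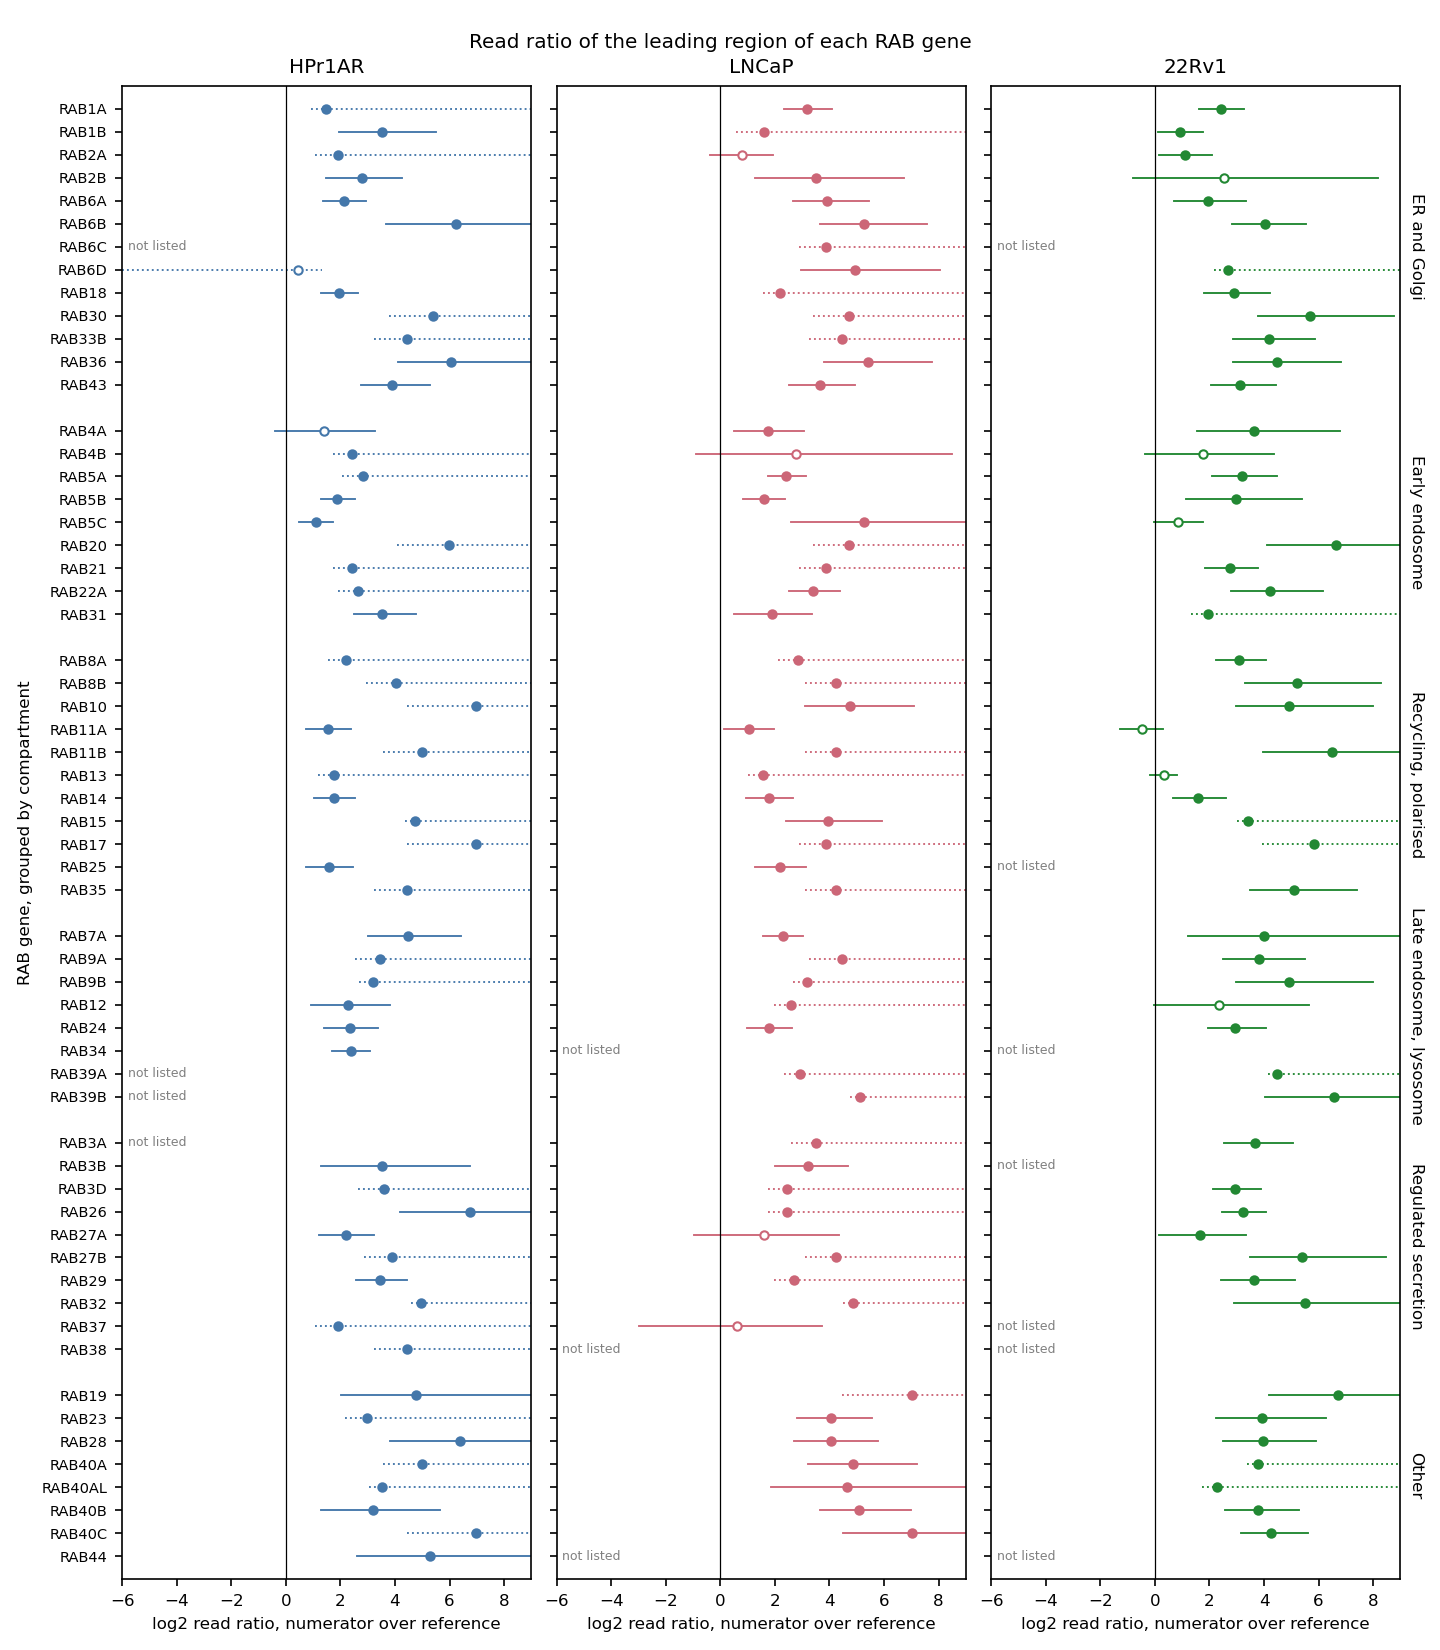
Log2 read ratio (numerator over reference, x axis) of the leading region of each of 59 RAB genes (y axis, grouped by compartment) in HPr1AR, LNCaP and 22Rv1. Lines are 95% exact binomial intervals, cut at the panel edges and dotted where the ratio is a bound or a count was 0; filled points are higher and open points are not. Most points lie right of 0 in every panel, and RAB2B, RAB5C, RAB11A, RAB12 and RAB13 are open in 22Rv1 only.

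RABs of the endoplasmic reticulum and Golgi had a higher region in 11 of 12 listed genes (HPr1AR), 12 of 13 (LNCaP) and 11 of 12 (22Rv1). Of their regions 29.7%, 45.9% and 61.5% were higher (all regions 40.6%, 40.0% and 56.4%). RAB30, a Golgi RAB, led this group with a 3′ end region at chr11:82692211-82693470 in HPr1AR. It held at least 56 numerator reads there (log2 read ratio at least 5.41, lower limit 3.79), at least 58 in LNCaP (at least 4.71, lower limit 3.41) and 71 against 2 reference reads in 22Rv1 (5.70, 3.79 to 8.77). The largest of its adjusted p-values over the lines, from the exact binomial test, was 8.81e-23. RAB30 was thus high in all 3 lines. Its limits overlapped, but those of HPr1AR and LNCaP have no upper end, so the overlap does not show equal values.

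RAB33B, a Golgi RAB that binds the autophagy protein ATG16L1, had its leading region in an exon at chr4:140393831-140394710 in HPr1AR. RAB33B gave at least 4.44 in HPr1AR (57 reads against 6, both minimal, lower limit 3.23), at least 4.45 in LNCaP (58 against 6, 3.24) and 4.18 in 22Rv1 (62 against 5, 2.88 to 5.85). The largest adjusted p of RAB33B was 7.51e-18. Its limits in the 3 lines overlapped, with no upper end in HPr1AR and LNCaP, so the overlap does not show equal values. RAB6B and RAB36 also exceeded a log2 read ratio of 4 in each line, with 6.23 (3.66 to 11.58), 5.26 (3.64 to 7.59) and 4.03 (2.83 to 5.52) for RAB6B in HPr1AR, LNCaP and 22Rv1.

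RAB1A and RAB1B, near-identical copies, act in transport from the endoplasmic reticulum to the Golgi. RAB1A had its leading region at the 3′ end in each line, with at least 1.46 in HPr1AR (64 against 53, lower limit 0.91), 3.18 in LNCaP (60 against 15, 2.34 to 4.10) and 2.41 in 22Rv1 (62 against 17, 1.62 to 3.28). At the 3′ end RAB1B gave 0.77 in HPr1AR (38 against 51, 0.12 to 1.4), 0.46 in LNCaP (42 against 69, -0.13 to 1.04) and 0.93 in 22Rv1 (30 against 23, 0.10 to 1.78), with overlapping limits. The leading RAB1B region was the start in HPr1AR (20 against 4, 3.51, 1.93 to 5.52), an intron region in LNCaP (4 against 0, at least 1.59, lower limit 0.58) and the 3′ end in 22Rv1. RAB2A had no higher region in LNCaP (13 against 17 reads, 0.79, -0.37 to 1.92, adjusted p = 0.292, exact binomial test), while it had 3 of 21 in HPr1AR and 1 of 3 in 22Rv1. RAB2B had none in 22Rv1, where its start region held 4 reads against 1 (2.55, -0.79 to 8.17), too few to tell.

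RAB6A, which acts in retrograde transport at the Golgi, has the near-identical copies RAB6C and RAB6D, among which short reads can be split. In overlapping regions at its promoter exon RAB6A held 44 reads against 23 in HPr1AR (2.13, 1.37 to 2.92) and 40 against 6 in LNCaP (3.91, 2.67 to 5.44). The narrower 22Rv1 region there held 20 against 12 (1.28, 0.18 to 2.45), limits that lie under those of LNCaP. In 22Rv1 RAB6A led at its 3′ end instead, with 21 against 8 (1.94, 0.71 to 3.32). RAB6C was listed only in LNCaP, as 1 region at chr2:130736291-130739580 with at least 59 reads against 9 (at least 3.89, lower limit 2.87). RAB6D held 0 reads against 5 in HPr1AR, 27 against 2 in LNCaP (4.93, 2.94 to 8.05) and 13 against 0 in 22Rv1 (at least 2.66 with 3 reads as the floor for the reference, lower limit 2.16). The RAB6C region also carries the antisense gene RAB6C-AS1, and the sources used here do not say whether counting used strand.

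Early endosome RABs had a higher region in 8 of 9 genes in HPr1AR and in LNCaP and in 7 of 9 in 22Rv1 (all genes 93.1%, 90.7% and 91.2%). Of their regions 37.3%, 41.9% and 38.9% were higher (all regions 40.6%, 40.0% and 56.4%). RAB20, which acts in phagosome maturation, led with an exon region at chr13:111175431-111176540. It gave at least 6.0 in HPr1AR (56 against 2, lower limit 4.08), at least 4.71 in LNCaP (58 against 5, 3.41) and 6.63 in 22Rv1 (68 against 1, 4.11 to 11.96), with a largest adjusted p of 8.81e-23. All 7 RAB20 regions in the 3 tables were higher.

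The RAB5 copies, which drive early endosome fusion, led at different places. RAB5A led with its start region in every line, at least 2.83 in HPr1AR (59 against 19, lower limit 2.06), 2.42 in LNCaP (64 against 27, 1.75 to 3.13) and 3.19 in 22Rv1 (50 against 8, 2.10 to 4.48). RAB5B gave 1.89 (1.27 to 2.52), 1.59 (0.83 to 2.37) and 1.03 (0.29 to 1.78) at its 3′ end (chr12:56383721-56388480 in HPr1AR) in the same order. At its promoter exon (chr12:56367891-56368580 in HPr1AR), which led in 22Rv1, RAB5B gave 2.48 (1.30 to 3.78), 2.64 (0.88 to 4.74) and 2.96 (1.16 to 5.38). RAB5C gave 1.10 in HPr1AR (45 against 48, 0.48 to 1.71) and 0.86 in 22Rv1 (26 against 21, -0.03 to 1.76, adjusted p = 0.0861, exact binomial test), and its leading region in LNCaP was an intron region with 17 reads against 1 (5.26, 2.59 to 10.65). At the 3′ end of RAB5C the LNCaP value was 0.71 (29 against 40, -0.03 to 1.44), so the limits of all 3 lines overlapped there.

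RAB4A and RAB4B return cargo from early endosomes to the cell surface, and their leading regions held few reads in the lines without a call. RAB4A had no higher region in HPr1AR (leading region 7 against 6, 1.41, -0.38 to 3.26), and RAB4B had none in LNCaP (3 against 1) or in 22Rv1 (7 against 3). The RAB4B regions also carry the readthrough genes MIA-RAB4B and RAB4B-EGLN2. With so few reads, no difference was detectable there at this depth. RAB4A was called at its promoter exon in LNCaP (15 against 10, 1.76, 0.51 to 3.08) and in an intron of 22Rv1 (17 against 2, 3.63, 1.56 to 6.79). RAB4B was called in HPr1AR, where an intron region led (7 against 0, at least 2.41 at the floor, lower limit 1.72). RAB21 and RAB22A, by contrast, were called at their 3′ ends in every line. RAB21 gave at least 2.42 in HPr1AR, at least 3.89 in LNCaP and 2.74 (1.83 to 3.78) in 22Rv1.

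RABs of recycling and polarised traffic had a higher region in 11 of 11 genes in HPr1AR and in LNCaP, and in 8 of 10 in 22Rv1. Of their regions 33.0%, 38.8% and 51.1% were higher (all regions 40.6%, 40.0% and 56.4%). RAB35, which acts in rapid endosomal recycling and in cytokinesis, led at its start at chr12:120554381-120555960 in HPr1AR. RAB35 gave at least 4.44 in HPr1AR (57 against 6, lower limit 3.23), at least 4.23 in LNCaP (58 against 7, 3.09) and 5.09 in 22Rv1 (70 against 3, 3.49 to 7.40), with a largest adjusted p of 2.89e-21. RAB17, a RAB typical of epithelial cells, had 6 of 7, 6 of 7 and 5 of 5 regions higher. Its leading region was the start in HPr1AR (chr2:238499101-238499730, at least 6.97, lower limit 4.43), the 3′ end in LNCaP (at least 3.89, 2.87) and an intron region in 22Rv1 (78 against 2, at least 5.83, 3.93), with a largest adjusted p of 2.41e-20.

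RAB11A and RAB11B are close copies that both act at the recycling endosome. RAB11B led at its start in HPr1AR (chr19:8454641-8456340, 56 against 4, at least 5.0, lower limit 3.56) and LNCaP (58 against 7, at least 4.23, 3.09), and at its 3′ end in 22Rv1 (62 against 1, 6.50, 3.97 to 11.83), where the start gave 4.63 (68 against 4, 3.21 to 6.55). The largest adjusted p of RAB11B was 2.89e-21; its start region also carries the antisense gene RAB11B-AS1. RAB11A led at its start with 1.56 in HPr1AR (31 against 24, 0.74 to 2.39) and 1.05 in LNCaP (22 against 24, 0.15 to 1.95), and it had no higher region in 22Rv1, where the leading one held 22 reads against 45 (-0.49, -1.29 to 0.28). At the 3′ end of RAB11A the values were -1.13 in HPr1AR (10 against 50, -2.28 to -0.14, adjusted p = 0.0578, exact binomial test), -0.27 in LNCaP (15 against 41) and -0.54 in 22Rv1 (8 against 17). The 3′ end of RAB11B gave at least 2.17 in HPr1AR (lower limit 1.52) and at least 2.61 in LNCaP (1.90). The limits of RAB11A and RAB11B thus did not overlap at the start or at the 3′ end in any line. In internal exons they did overlap, with 1.03 (0.19 to 1.86), 1.01 (-0.06 to 2.06) and -0.15 (-1.15 to 0.80) for RAB11B beside 0.63 (0.07 to 1.17), 0.34 (-0.33 to 0.99) and -0.49 (-1.29 to 0.28) for RAB11A in HPr1AR, LNCaP and 22Rv1.

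RAB8A and RAB8B, which act in polarised exocytosis and cilium formation, were called at the 3′ end in each line. RAB8B gave at least 4.02 in HPr1AR (lower limit 2.95), at least 4.23 in LNCaP (3.09) and 5.22 in 22Rv1 (51 against 2, 3.29 to 8.30). RAB25, an epithelial relative of RAB11, was listed in HPr1AR (leading at the 3′ end, 29 against 22, 1.59, 0.74 to 2.46) and LNCaP (at the start, 32 against 16, 2.18, 1.27 to 3.14) and not in 22Rv1. RAB14 gave 1.78 (1.02 to 2.55), 1.79 (0.95 to 2.65) and 1.59 (0.66 to 2.59) at its start in HPr1AR, LNCaP and 22Rv1, values that lie close together. The RAB14 start region is shared with GSN in the tables.

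RABs of late endosomes, lysosomes and autophagy had a higher region in 6 of 6 listed genes (HPr1AR), 7 of 7 (LNCaP) and 6 of 7 (22Rv1). By region 16.5%, 28.6% and 42.3% were higher, under the 40.6%, 40.0% and 56.4% of all regions, and 58 of the 79 HPr1AR regions were those of RAB7A. RAB9A, which acts in transport from late endosomes to the Golgi, was called at the 3′ end with at least 3.46 in HPr1AR (58 against 12), at least 4.45 in LNCaP (58 against 6) and 3.81 (48 against 5, 2.49 to 5.50) in 22Rv1. RAB7A, the main RAB of late endosomes, had 6 of 58, 4 of 20 and 3 of 11 regions higher. RAB12 had none of 7 higher in 22Rv1 (leading region 7 against 2, 2.35, -0.04 to 5.66). RAB39A and RAB39B were listed in LNCaP and 22Rv1 and not in HPr1AR. RAB39A held 10 reads against 0 in LNCaP (at least 2.91 at the floor, lower limit 2.34) and 46 against 0 in 22Rv1 (at least 4.49, 4.13). RAB39B held 46 reads against 0 in LNCaP (at least 5.12 at the floor, lower limit 4.76) and 65 against 1 in 22Rv1 (6.57, 4.04 to 11.90), in regions that the tables also give to F8A1, H2AB3 and MIR1184-3. RAB34 was listed only in HPr1AR (59 against 26, 2.37, 1.68 to 3.10).

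RABs of regulated secretion and lysosome-related organelles had a higher region in 9 of 9 genes (HPr1AR), 7 of 9 (LNCaP) and 7 of 7 (22Rv1). Of their regions 40.0%, 48.6% and 77.8% were higher (all regions 40.6%, 40.0% and 56.4%), the last share being 14 of 18 regions. RAB27B, which acts in the docking of secretory granules and exosome release, led at the 3′ end at chr18:52556451-52559200 in HPr1AR. It gave at least 3.88 in HPr1AR (58 against 9, lower limit 2.86), at least 4.23 in LNCaP (58 against 7, 3.09) and 5.41 in 22Rv1 (58 against 2, 3.49 to 8.48), with a largest adjusted p of 3.07e-19. Its relative RAB27A gave 2.19 in HPr1AR (28 against 14, 1.22 to 3.23), 1.59 in LNCaP (4 against 3, -0.97 to 4.36, not called) and 1.66 in 22Rv1 (13 against 6, 0.17 to 3.34).

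Other secretory members separated the lines by being listed or not. RAB38, which acts in melanosome formation with RAB32, was listed only in HPr1AR, with 6 of 14 regions higher and at least 57 reads against 6 in the leading one (at least 4.44, lower limit 3.23). RAB3A, known from synaptic vesicles, was listed in LNCaP (at least 3.50, lower limit 2.59) and 22Rv1 (61 against 7, 3.67, 2.54 to 5.04) and not in HPr1AR, and its leading region is shared with MPV17L2. RAB3B was listed in HPr1AR (10 against 2, 3.51, 1.28 to 6.74) and, with another leading region, in LNCaP (29 against 7, 3.23, 2.01 to 4.66). RAB37 was listed in the same lines, with 5 reads against 0 (at least 1.93 at the floor, lower limit 1.06) and 2 against 3 (0.59, -2.99 to 3.72). RAB32 was listed in all lines, with 41 reads against 0 at its start in HPr1AR (at least 4.96 at the floor, lower limit 4.60), 39 against 0 in LNCaP (at least 4.88, 4.51) and 31 against 1 at its 3′ end in 22Rv1 (5.50, 2.92 to 10.85). A gene that a table does not list had no region there, which does not show that the RNA was absent or unmodified, and in these pooled tables fewer cells with a transcript and less RNA per cell cannot be told apart.

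The remaining members include the RAB40 group, which carry a SOCS box and join ubiquitin ligases, RAB23, an inhibitor of Hedgehog signalling, and RAB28, a RAB of cilia. Each listed member had a higher region (8 of 8 in HPr1AR, 7 of 7 in LNCaP and in 22Rv1), and 70.3%, 61.1% and 85.7% of their regions were higher, against the 40.6%, 40.0% and 56.4% of all regions given above. Most of these regions belong to RAB40C and RAB28, with 12 and 13 of 37 in HPr1AR, 14 and 10 of 36 in LNCaP and 12 and 6 of 28 in 22Rv1. RAB40C ranked first of all RAB genes, with a largest adjusted p of 3.70e-25. Its leading region lay in an intron at chr16:663381-665620 with the same start and end in HPr1AR (55 against 1, at least 6.97, lower limit 4.43) and LNCaP (58 against 1, 7.04, 4.50 to 12.36). In 22Rv1 the leading region was the 3′ end (91 against 7, 4.25, 3.15 to 5.60).

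Most RAB40C regions were higher, with 9 of 12, 9 of 14 and 10 of 12 in HPr1AR, LNCaP and 22Rv1, and the rest were not called. Its exon region with the table's promoter mark, chr16:638741-641460 in HPr1AR, held 42 reads against 0 (at least 5.0 at the floor), and the overlapping regions held 51 against 3 in LNCaP (5.26, 3.64 to 7.59) and 57 against 2 in 22Rv1 (5.38, 3.46 to 8.46). RAB40A, RAB40AL and RAB40B are close copies of it, and reads can be split among them. RAB40A gave at least 5.0, 4.88 (3.22 to 7.22) and at least 3.77 in HPr1AR, LNCaP and 22Rv1. RAB40B gave 3.19 (1.30 to 5.66), 5.08 (3.65 to 7.01) and 3.80 (2.58 to 5.30), and RAB40AL held 15 reads against 0, 11 against 1 and 10 against 0. RAB44, a large RAB with an EF-hand, was listed only in HPr1AR (17 against 1, 5.28, 2.60 to 10.66).

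The position of RAB regions within the gene was taken from the table's own marks and neighbouring exons. At the 3′ end 41 of 65 RAB regions were higher in HPr1AR (63.1%, all regions there 63.0%), 39 of 64 in LNCaP (60.9%, 62.6%) and 42 of 64 in 22Rv1 (65.6%, 69.4%). At the 5′ end 17 of 29 (58.6%, 59.2%), 16 of 28 (57.1%, 57.4%) and 15 of 26 (57.7%, 63.1%) were higher. Internal exons were higher in 12 of 50 (24.0%, 31.1%), 10 of 43 (23.3%, 28.4%) and 11 of 37 (29.7%, 34.8%). Regions with no other exon of the gene listed nearby were higher in 28 of 51 (54.9%, 66.2%), 26 of 38 (68.4%, 64.1%) and 20 of 25 (80.0%, 71.1%). Regions counted as either end stood above internal exons in each line, for RAB regions as for all. In HPr1AR the regions with no other exon near were highest over all genes and lay under both ends in RAB genes. Pooled over the 3 tables, 122 of 193 RAB regions at the 3′ end were higher (63.2%, 95% exact binomial limits 56.0 to 70.0), beside 64.9% of all such regions. After centring 38.3% of these RAB regions were higher, with no matching share over all such regions given here. Regions of the same gene recur between tables, so these limits are too narrow. An exon counts here as a 3′ end if its gene has another exon within 10000 bp only upstream, and as a 5′ end if only downstream. Promoter exons (as in RAB5B) and exons beside long introns can thus be counted as ends. In HPr1AR the RAB5A region chr3:19992291-19992570 was counted as a 3′ end, although the gene ran on to chr3:20025191-20026580. The RAB10 region chr2:26350011-26350830 was counted as a 5′ end, although an exon region lay upstream at chr2:26256861-26258370. The 3′ end RAB regions were also wide and well covered, with a median of 40 reads in HPr1AR against 18 in internal exons, and the part that coverage plays in the shares was not tested.

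**Figure D2:**
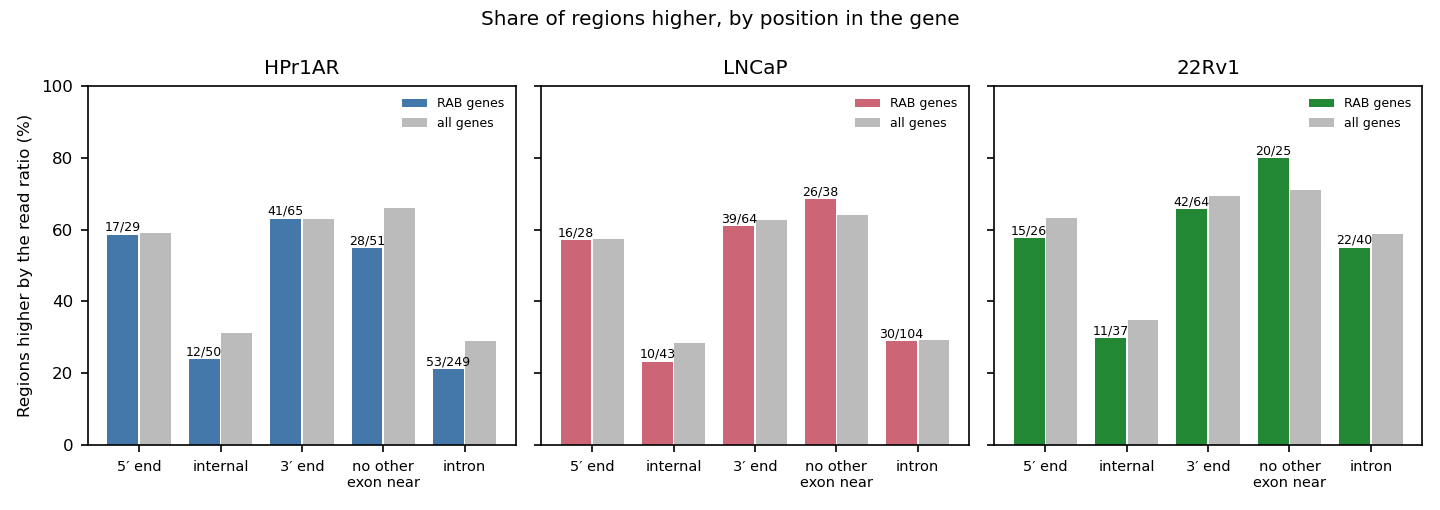
Percent of regions higher by the read ratio (y axis) at each position (x axis) for RAB genes (coloured) and all genes (grey) in HPr1AR, LNCaP and 22Rv1, with higher and listed RAB regions above the bars. Regions counted as gene ends, by neighbouring exons within 10000 bp, stand above internal exons in each line. The intron bars are higher in 22Rv1 than in the other lines.

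At the transcript start, 8 RAB genes (RAB5A, RAB11B, RAB14, RAB17, RAB28, RAB29, RAB32 and RAB35) of the 47 with a RefSeq start sequence had a higher start region in all 3 lines, and 22 of the 47 had one in at least 1 line. No matching counts over all genes are given here, so these counts do not set RAB genes apart. A start region is here an exon region that the table marks as promoter part and that has a further exon of the gene within 10000 bp downstream only, which leaves out promoter exons with no exon that near, such as that of RAB40C. GGAC is the core of the most frequent m6A consensus. It was searched in the first 50 transcribed bases of the RefSeq starts (assembly GRCh38.p14), which were matched for those 47 of the 59 RAB genes. It was found in 8 of 47 RAB starts (17.0%) and in 18.9% of 35116 starts in all; on the opposite strand, as GTCC, the shares were 10.6% and 17.6%. Among the 22 RAB genes with a higher start region, 3 held GGAC, and these sites are shown as examples of the motif at a RefSeq start, with GGAC in capitals, 5′ to 3′ on the transcript strand. The region coordinates follow another build, so whether the sites lie under the regions was not tested. RAB14, the only one of the 8, has it at chr9:121201853-121201869 on the minus strand; RAB19 (2 lines) at chr7:140404059-140404078 on the plus strand; and RAB3A (1 line) at chr19:18204028-18204042 and chr19:18204016-18204035 on the minus strand.
RAB14: atcttGGACcagcccga
RAB19: ctttctcaGGACgccaaacc
RAB3A first site: gcaGGACgtcacgga
RAB3A second site: gtcacggaGGACtgcagggg
The share of RAB starts with the motif was near that of all starts, and a match here is a description of letters, not a mapped modification. Last exons and introns were not searched here.

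Introns held 249 of 444 RAB regions in HPr1AR, but 104 of 277 for LNCaP, and only 40 of 192 in the 22Rv1 table. Of these 53 (21.3%), 30 (28.8%) and 22 (55.0%) were higher, beside 29.0%, 29.1% and 58.7% of all intron regions. RAB7A held 58 regions and RAB10, a RAB of regulated exocytosis, held 53 in HPr1AR, against 11 and 7 in 22Rv1, and in HPr1AR most of them had ratios near or under 0. A minority stood far above their neighbours at the same place in each line. The RAB10 intron region at chr2:26345511-26346910 held at least 55 reads against 1 in HPr1AR (at least 6.97, lower limit 4.43), 36 against 3 in LNCaP (4.76, 3.10 to 7.11) and 41 against 2 in 22Rv1 (4.90, 2.96 to 8.0). The RAB7A intron region at chr3:128469481-128472000 held 39 against 4 in HPr1AR (4.48, 3.00 to 6.42), 12 against 1 in LNCaP (4.76, 2.01 to 10.18) and 11 against 1 in 22Rv1 (4.01, 1.22 to 9.43).

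**Figure D3:**
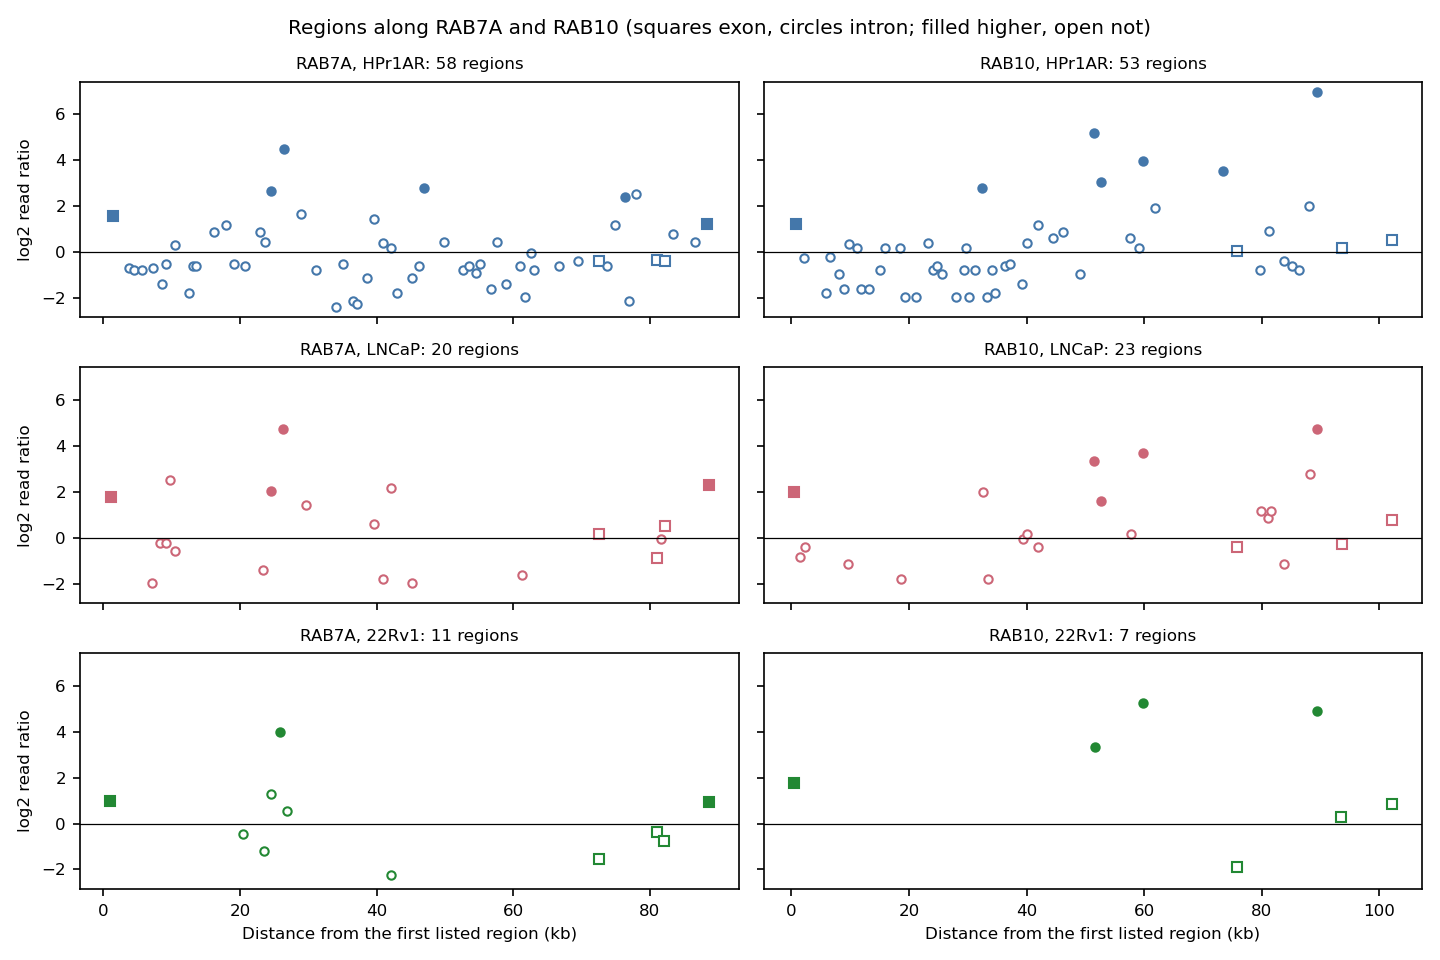
Log2 read ratio (y axis) of every listed region along RAB7A (left) and RAB10 (right) in HPr1AR, LNCaP and 22Rv1, by distance of the region's middle from the first listed region in kb (x axis). Squares are exon and circles intron regions, filled where higher; the same few intron regions stand out in each line while most HPr1AR intron regions lie near or under 0.

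Over all RAB genes, 144 HPr1AR regions overlapped a region of the same gene in both other tables, 82 of these were higher in all 3, and they belonged to 38 genes. No matching count over all genes is given here, so these counts do not set RAB genes apart. Of the 82, 15 were marked as intron in each table, in RAB7A, RAB10, RAB15, RAB17, RAB18, RAB28, RAB40C and RAB43. RAB15, an endosomal RAB, had 35 reads against 0 at chr14:65419871-65420530 in HPr1AR (at least 4.73 at the floor), 8 against 0 in LNCaP (at least 2.59) and 22 against 0 in 22Rv1 (at least 3.42); its RAB15 regions also carry CHURC1-FNTB. RAB28 had 37 against 1 at chr4:13452621-13457210 in HPr1AR (6.4, 3.83 to 11.74) and 24 against 1 in LNCaP (5.76, 3.15 to 11.12). Whether such reads come from unspliced RAB RNA, an unlisted exon or another transcript was not tested.

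The design also sets the lines side by side. Overlapping RAB regions were counted as different where their 95% limits did not overlap; there is no replicate test between the pooled tables. Between HPr1AR and LNCaP 3 of 234 RAB pairs (1.28%) did so, against 2.35% of all pairs. Between HPr1AR and 22Rv1 it was 6 of 173 (3.47%, all pairs 2.41%), and between LNCaP and 22Rv1 4 of 174 (2.30%, all pairs 2.06%). With a reciprocal overlap of at least 50% it was 0 of 132, 3 of 89 and 2 of 113 RAB pairs. No share over all pairs is given here for that rule. At these depths most RAB regions could not be told apart between lines.

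RAB13, which acts at tight junctions, was the clearest case over nearly the same span. At chr1:153954161-153956070 it held at least 63 reads against 42 in HPr1AR (at least 1.78, lower limit 1.19), at least 65 against 50 in LNCaP (at least 1.56, 1.00) and 66 against 77 in 22Rv1 (0.32, -0.17 to 0.82). The 22Rv1 limits lay under those of both other lines, with or without centring on the median of all pairs. RAB26, a RAB of secretory granules, gave 6.74 in HPr1AR (47 against 1, 4.20 to 12.08) and 3.22 in 22Rv1 (102 against 16, 2.45 to 4.08) at the same 3′ end, and its 22Rv1 reads had more than 1 solution. The LNCaP region there gave at least 2.43 (lower limit 1.75), a bound that sets no upper limit. RAB7A gave 2.29 in LNCaP (54 against 25, 1.58 to 3.03) and 0.95 in 22Rv1 (65 against 49, 0.40 to 1.52) at its 3′ end, and the LNCaP reads likewise had more than 1 solution. The overlapping HPr1AR region gave 1.21 (67 against 66, 0.70 to 1.72). RAB11A gave 1.56 in HPr1AR (0.74 to 2.39) and -0.29 in 22Rv1 (14 against 25, -1.35 to 0.71) at its start, limits that overlapped once the ratios were centred.

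The other pairs set a narrow region beside a wide one, so their representative windows need not coincide. They were RAB8B, RAB6D and RAB23 between HPr1AR and LNCaP, RAB3D, RAB5A and RAB7A (an intron region) between HPr1AR and 22Rv1, and RAB4A and RAB6A between LNCaP and 22Rv1. For RAB4A, 15 reads against 10 in LNCaP (1.76, 0.51 to 3.08) stood beside 12 against 28 in 22Rv1 (-0.68, -1.79 to 0.35). For RAB6D, 0 reads against 5 in HPr1AR (upper limit 1.32) stood beside 27 against 2 in LNCaP (4.93, 2.94 to 8.05).

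**Figure D4:**
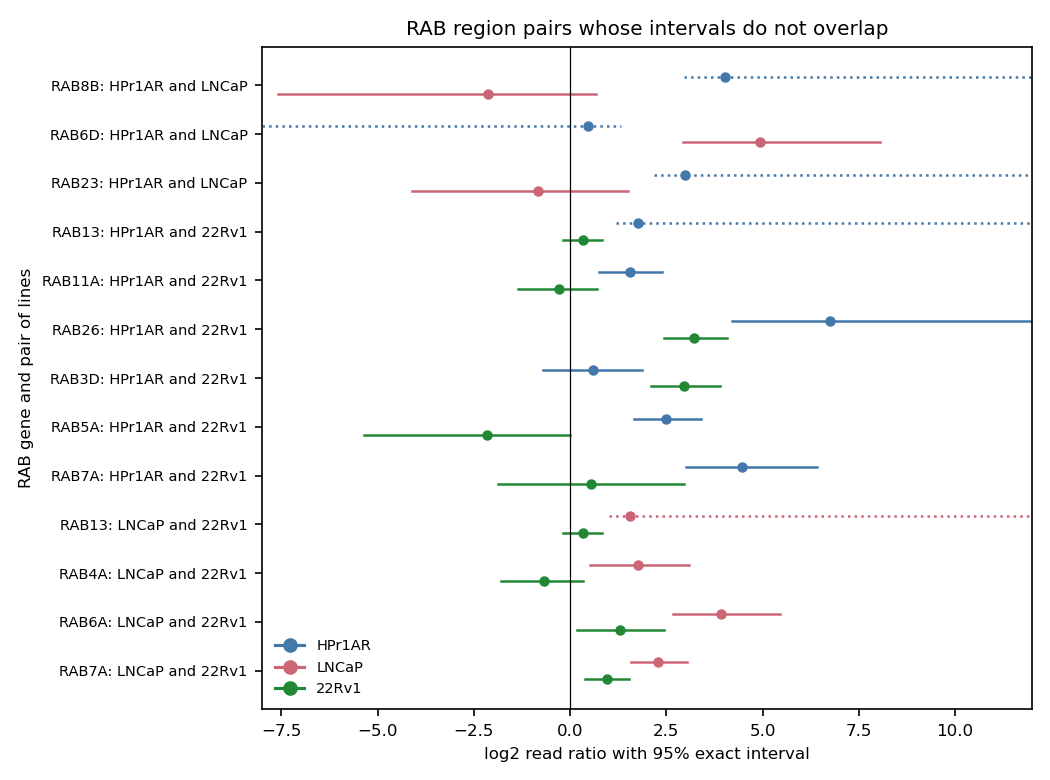
Log2 read ratio with its 95% exact binomial interval (x axis) for the 13 RAB region pairs whose intervals do not overlap (y axis, gene and pair of lines), coloured by line. Dotted lines have no upper or no lower limit. In 11 of the 13 pairs the second line named has the lower value, and RAB6D and RAB3D go the other way. That direction was also the more frequent over all regions. There the second line was lower in 1060 of 1835 such pairs (HPr1AR and LNCaP), 1145 of 1517 (HPr1AR and 22Rv1) and 994 of 1317 (LNCaP and 22Rv1).

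The regulators of the RAB cycle were taken from lists of exchange factors, GTPase-activating proteins, effectors and prenylation genes. Of the genes for prenylation and extraction, 6 of 6 had a higher region in HPr1AR and LNCaP and 5 of 6 in 22Rv1. By region 30.8%, 37.0% and 45.8% were higher, under the 40.6%, 40.0% and 56.4% of all regions. CHM and CHML, the escort proteins that present RABs for prenylation, gave at least 3.88 and at least 4.22 in HPr1AR, 4.08 (3.01 to 5.36) and at least 3.28 in LNCaP, and 6.41 (3.87 to 11.73) and 5.25 (3.65 to 7.56) in 22Rv1. GDI2, a GDP dissociation inhibitor, gave at least 4.70, 3.67 (2.57 to 4.97) and 4.35 (2.71 to 6.69). RABGGTA, a subunit of the prenylating enzyme, was not called in 22Rv1 (11 against 6, 1.42, -0.14 to 3.14).

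Exchange factors had a higher region in 33 of 34 listed genes (HPr1AR), 30 of 32 (LNCaP) and 35 of 35 (22Rv1). Of their regions 41.5%, 43.3% and 64.2% were higher (all regions 40.6%, 40.0% and 56.4%). RABGEF1, an exchange factor for RAB5, gave at least 5.0 in HPr1AR, at least 4.23 in LNCaP and 4.23 (77 against 6, 3.04 to 5.72) in 22Rv1. RAB3IP, an exchange factor for RAB8, gave 4.19 (2.69 to 6.15), 4.59 (2.92 to 6.94) and 4.50 (3.07 to 6.42). GTPase-activating proteins had a higher region in 35 of 35, 36 of 36 and 34 of 35 genes, and 42.3%, 42.0% and 65.2% of their regions were higher. TBC1D16 had 15 of 18, 17 of 25 and 12 of 13 regions higher. TBC1D15, which acts on RAB7, was the exception in 22Rv1 (0 of 7, leading region 2 against 12, -2.04, -5.24 to 0.13).

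Effectors had a higher region in 40 of 40 genes (HPr1AR), 41 of 41 (LNCaP) and 38 of 39 (22Rv1), and 41.1%, 34.1% and 53.1% of their regions were higher. RAB11FIP1, an effector of RAB11, gave at least 5.41 in HPr1AR, at least 3.74 in LNCaP and 4.41 (87 against 6, 3.23 to 5.89) in 22Rv1. RILP, which links RAB7 to dynein, was not called in 22Rv1 (13 against 7, 1.44, 0.01 to 3.01, adjusted p = 0.0639, exact binomial test). These shares stand beside 40.6%, 40.0% and 56.4% of all regions.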

How the data were processed

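RNA from m6A and IgG pull-downs of 3 prostate lines (17 samples in 6 groups by their labels) was compared by the authors. Per the file headers, the authors deposited 1 table per line with a log2 fold, a p-value and an adjusted p-value for each region, and the overlapping gene names. Aligner, window counter and test: not given in the sources used here. In all, 0 columns of values per sample were found. The submitters' processing notes name hg38. The members and gene lists were chosen with earlier results of these data known.

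The deposited log2 fold equalled the log2 numerator count of a window, less 2 times its log2 reference count, up to a prior count and a shift fixed per table. Whole reads were found for 99.9985%, 99.84% and 99.95% of the HPr1AR, LNCaP and 22Rv1 regions whose p exceeds 0, within 2e-04, 0.0118 and 2.14e-04 log2 units, after the scale of the p-value was fitted against reads (0.831 to 0.996, 0.820 to 0.993 and 0.742 to 1.000). More than 1 pair of counts was possible in 206, 2807 and 51 regions, and the nearest was taken. Numerator depths of 5.13, 3.92 and 3.30 M and reference depths of 11.7, 8.87 and 4.82 M come from the fitted constants and were not checked against sequenced reads. Ratios were tested against these depths with an exact two-sided binomial test, adjusted by Benjamini-Hochberg over each table at 0.05, in Python 3.11.15 with scipy 1.17.1. A count of 0 was set to 3 reads in a ratio. Steps were tested on simulated data. The simulated regions were drawn from the same fitted formula with a single window each, so they do not test the formula itself. p-values and limits cover counting error only, since reads without molecular identifiers are not independent molecules, and say nothing about the spread between samples.

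Leading values are given for the 8 RAB genes with the smallest largest adjusted p over the lines, genes called in some lines only whose limits do not overlap between lines, genes listed in some tables only and near-identical copies; other genes were named after their values were seen. All 59 RAB symbols matched the RefSeq gene table, and 47 had an entry in the RefSeq table of start sequences. Some items are not reported here.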

Additional observations from a re-analysis of the deposited data

How the results depend on the processing

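The count of higher RAB regions in HPr1AR fell from 151 to 98 with exon marks only and to 81 with the line's median log2 read ratio set to 0. That centring gave 74 in LNCaP, 39 in 22Rv1, 26 genes with a higher region in 22Rv1 and a share of 38.3% at the 3′ end, which was 72.0% among regions above the read rate that all tables reach (0.739 CPM). After centring 22.7%, 21.7% and 17.2% of all regions were higher in HPr1AR, LNCaP and 22Rv1. The exon count, the 26 genes and these 3′ end shares have no value over all regions or genes beside them here. RAB pairs with limits that do not overlap numbered 0 of 132, 3 of 89 and 2 of 113 with a reciprocal overlap of at least 50% (HPr1AR and LNCaP, HPr1AR and 22Rv1, LNCaP and 22Rv1). They numbered 5 of 234 between HPr1AR and LNCaP after centring (2.25% of all pairs), where RAB3D and RAB7A joined. The shares at the 3′ end under both settings and the counts without RAB7A and RAB10 were added after the data were seen. Other settings kept counts within 1.5 times. Above the shared read rate, 65.9%, 60.6% and 58.1% of RAB regions were higher in HPr1AR, LNCaP and 22Rv1, beside 63.3%, 52.4% and 57.3% of all.

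No paired analysis was possible because the tables pool the samples of a line and carry no replicate number, and for the same reason no replicate was left out. The labels have no replicate 2 of the 22Rv1 m6A pull-down, and its share in that table is not known. RAB limits are widest where the window held few reads (a median of 11, 12 and 19 over RAB regions), and the cause of differences in share between lines was not tested.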

Other observations

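Other small GTPase families gave a background of the same kind. ARF genes, which act in vesicle budding, had a higher region in 24 of 26 listed genes (HPr1AR), 20 of 23 (LNCaP) and 20 of 23 (22Rv1), and RAS genes in 25 of 25, 23 of 26 and 28 of 29. By region, 37.4%, 35.6% and 42.7% of ARF regions and 37.9%, 40.8% and 60.0% of RAS regions were higher, beside 40.6%, 40.0% and 56.4% of all regions.

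RAP1A had 9 of 24 regions higher in HPr1AR, with 49 reads against 0 in the leading one (at least 5.22 at the floor of 3 reads), and 0 of 6 and 0 of 2 in LNCaP and 22Rv1. ARF5 gave 1.07 (24 against 26, 0.21 to 1.93) in HPr1AR, 0.55 (20 against 31, -0.34 to 1.4) in LNCaP and 0.01 (29 against 42, -0.72 to 0.73) in 22Rv1, with overlapping limits. These genes were named after their values were seen, and differences between lines were not tested.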
